A study of Homo sapiens with 24 samples.

Results

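The 10 genes described here, SAA1, SAA2, BPIFB1, TCN1, LCN2, SLPI, PIGR, C3, CFB and SERPINA1, encode secreted or surface proteins of airway epithelium and of the acute phase response. They are 10 of the 19702 genes in the deposited count table, found by symbol. They were chosen by measured values of these libraries: in PC9 cells given the combination of almonertinib and paclitaxel, SAA1 and BPIFB1 were high and TCN1 was low against the control. Levels in that comparison are therefore a description, with no test, for every gene here. SAA1, BPIFB1 and TCN1 also have no test wherever PC9 control or PC9 combination libraries enter.

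Messenger RNA was sequenced from 2 established lung adenocarcinoma cell lines that carry EGFR mutations, PC9 and H1975, each in 4 groups of 3 libraries collected after 24 h. PC9 cells were left as control, given almonertinib at 2 nM, given paclitaxel at 0.3 nM, or given the combination. H1975 cells were left as control, given almonertinib at 1 nM, given paclitaxel at 1 nM, or given the combination. Almonertinib is a covalent EGFR tyrosine kinase inhibitor and paclitaxel is a taxane that stabilises microtubules. The doses inside the combination, and any vehicle in the control, are not given separately in the labels. Line and dose differ together, so a difference between the lines is one of line and dose. Nothing in the labels says that the 3 repeats came from separate cultures, and p-values then measure only the spread between these libraries.

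Serum amyloid A proteins (SAA1, SAA2), complement component C3, complement factor B (CFB) and alpha-1-antitrypsin (SERPINA1) are acute phase proteins. The liver is their main source in the body, and inflamed epithelium also makes them, under interleukin-6, interleukin-1 and their factors NF-kB, STAT3 and C/EBP. BPIFB1, lipocalin 2 (LCN2), the antiprotease SLPI and the cobalamin carrier haptocorrin (TCN1) are poured onto the airway surface by secretory cells and glands. The polymeric immunoglobulin receptor (PIGR) carries dimeric IgA across that epithelium into the lumen.

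The stretches before the transcription start of 4 genes are shown because their transcripts moved together (BPIFB1, PIGR), moved the other way (TCN1) or stayed near one level in PC9 cells (LCN2). They are RefSeq promoter windows on GRCh38.p14, cut to the part that no GENCODE v29 exon covers, and are given 5′ to 3′ on the gene's strand. BPIFB1 is at chr20:33282964-33283134 (plus strand), TCN1 at chr11:59866576-59866737 (minus strand), LCN2 at chr9:128149265-128149440 (plus strand) and PIGR at chr1:206946467-206946716 (minus strand). Capitals mark matches to 5 motifs searched on both strands.
BPIFB1: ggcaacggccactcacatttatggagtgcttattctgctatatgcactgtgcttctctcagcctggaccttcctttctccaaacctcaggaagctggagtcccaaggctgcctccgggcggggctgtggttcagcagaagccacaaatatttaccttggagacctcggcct
PIGR: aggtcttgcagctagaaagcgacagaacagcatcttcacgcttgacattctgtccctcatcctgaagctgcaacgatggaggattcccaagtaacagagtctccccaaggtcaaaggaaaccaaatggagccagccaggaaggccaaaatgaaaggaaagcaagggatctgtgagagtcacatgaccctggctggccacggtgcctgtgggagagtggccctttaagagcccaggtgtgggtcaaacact
TCN1: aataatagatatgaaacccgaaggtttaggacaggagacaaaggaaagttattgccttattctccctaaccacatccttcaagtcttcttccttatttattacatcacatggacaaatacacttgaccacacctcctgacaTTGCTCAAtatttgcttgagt
LCN2: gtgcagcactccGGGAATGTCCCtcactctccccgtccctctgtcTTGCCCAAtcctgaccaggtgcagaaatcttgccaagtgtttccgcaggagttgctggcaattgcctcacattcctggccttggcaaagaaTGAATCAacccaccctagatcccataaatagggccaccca

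The motifs were searched over 300 bases, from 250 before to 50 after the start, in the 6 of the 10 genes that the RefSeq table holds. The letters for NF-kB were GGGANNNNCC, which 25.6% of the 34796 promoters of that length hold. The letters for STAT were TTCNNNGAA (7.67% of promoters), for C/EBP TTGCNNAA (10.5%), for AP-1 TGANTCA (7.73%) and for the interferon-stimulated element TTTCNNTTTC (3.57%). TCN1 held 1 match, the C/EBP letters TTGCTCAA at -109, where -1 is the base just before the start and the position is that of the first base of the match. LCN2 held 2 overlapping NF-kB matches, GGGAATGTCC at -176 and GGAATGTCCC at -175. It also held C/EBP letters at -143 and AP-1 letters at -52. CFB, whose window lies inside a GENCODE exon and is not shown, held NF-kB letters GGGAGAGTCC at -185 and GGGCCCTCCC at -111, STAT letters TTCCGGGAA at -92 and the interferon-element letters TTTCTGTTTC at -140. No letters of these 5 motifs were found in the windows of BPIFB1, PIGR and SERPINA1. A match is a run of letters and was not tested as a site.

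Total counts per library ranged from 14232299 to 24245314, with 13780 to 14502 genes detected, and the labels give no batch. In H1975, almonertinib repeat 1, control repeat 3 and paclitaxel repeat 1 stood apart from the other 2 libraries of their groups. The SD over genes of the log2 difference from those 2 was 0.717 in almonertinib repeat 1, 0.406 in control repeat 3 and 0.398 in paclitaxel repeat 1. The other 2 libraries of each group, measured the same way with the distant one among their comparators, gave 0.378 and 0.449 for almonertinib, 0.250 and 0.279 for control and 0.210 and 0.264 for paclitaxel. In PC9 the highest value was 0.411, in almonertinib repeat 3, which was kept and left out in turn like every other library. Results in H1975 are therefore given with and without these 3 libraries, a choice made after the data were seen. Summed epithelial markers (9 genes, among them EPCAM and KRT8) reached 15600 to 29780 CPM (counts after scaling every library to one common size) in PC9 and 8972 to 16000 CPM in H1975. Summed club and goblet cell markers (6 genes) stood at 55.3 to 126 CPM in PC9, with SCGB3A1 at 0, and at 0.283 to 0.926 CPM in H1975, with SCGB1A1, SCGB3A1 and SCGB3A2 at 0. Hepatocyte markers summed to at most 0.352 CPM in any library, with ALB, APOB and TTR at 0. Fibroblast markers summed to 5.57 to 22.7 CPM and blood cell markers to 1.06 to 11.6 CPM. In bulk RNA, fewer cells with a transcript and less of it per cell cannot be told apart.

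In control cells the order of the genes differed between the lines. Per kilobase of transcript, the mean PC9 control level was 1028.6 CPM per kb for SLPI, 445 for LCN2, 32.7 for C3, 18.2 for TCN1, 4.53 for SAA1, 2.43 for CFB, 0.764 for BPIFB1 and 0.172 for SAA2. SERPINA1 and PIGR were lowest in PC9 controls at 0.0375 and 0.0108 CPM per kb. H1975 controls instead had SERPINA1 first at 29.4 CPM per kb, then SLPI at 12.8, LCN2 at 12.6, TCN1 at 3.38, SAA1 at 2.62, C3 at 1.69, CFB at 0.467 and SAA2 at 0.0646. BPIFB1 and PIGR had no count in the 3 H1975 control libraries. The neighbours SLPI and LCN2 in H1975 controls lie closer than their spread.

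**Figure D1:**
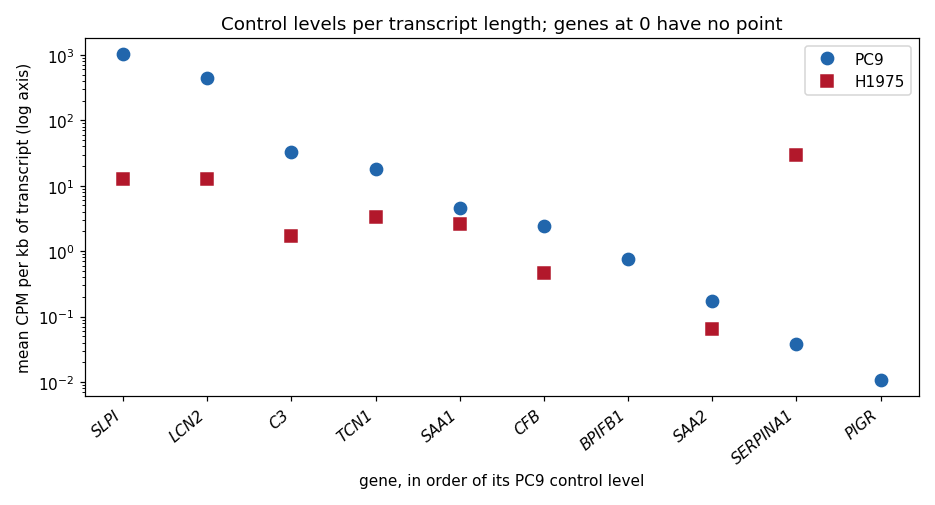
Mean control level of each gene in CPM per kb of transcript (log axis) in PC9 (circles) and H1975 (squares), with the genes in order of their PC9 level and no point for a gene at 0. SERPINA1 is the gene whose H1975 level lies above its PC9 level.

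SLPI, LCN2, C3 and CFB were the 4 genes with a test that were over the count minimum in every control library of both lines. SAA1 and TCN1 were over it too, but the choice used their PC9 control values. All 4 tested genes differed between the control groups (edgeR quasi-likelihood test, adjusted p under 0.05), beside 68.7% of all 13380 genes tested. In PC9 controls SLPI was higher by 6.32 ± 0.28 on the log2 scale (± is the standard error, adjusted p = 4.7e-16), LCN2 by 5.14 ± 0.16 (3.6e-19), C3 by 4.27 ± 0.21 (2.6e-15) and CFB by 2.36 ± 0.23 (1.3e-09). SERPINA1 went the other way, with 1, 3 and 2 counts in PC9 controls against 99.1 to 111 CPM in H1975 controls. It passed the count filter through H1975 alone, so no test is given for it. SAA2 and PIGR, both near 0 counts in these 6 libraries, passed through treated PC9 libraries alone and are not tested here either. TCN1 stood at 28.8 ± 7.22 CPM (SD, n = 3) in PC9 controls and 5.35 ± 1.84 CPM in H1975 controls, and SAA1 at 3.06 ± 0.299 and 1.77 ± 0.275 CPM, with no test.

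SAA1 (chromosome 11, 18266174-18269977, plus strand, GENCODE v29 on GRCh38, ENSG00000173432) was low in untreated PC9 cells and higher under each treatment. Its level in the controls was 2.93, 2.84 and 3.40 CPM. Under almonertinib it was 28.0, 33.8 and 42.4 CPM. Under paclitaxel it was 14.9, 15.1 and 15.1 CPM, and under the combination 37.4, 33.9 and 35.6 CPM. All 9 treated libraries lay above the 3 controls, the paclitaxel libraries lay between the controls and the others, and the combination libraries lay inside the almonertinib range. The log2 difference from control was 3.51 ± 0.16 for almonertinib, an 11.4-fold higher level, 2.28 ± 0.16 for paclitaxel and 3.54 ± 0.16 for the combination, with no test. These 3 comparisons share the control libraries. Between the combination and almonertinib the difference was 0.03 ± 0.12, and without almonertinib repeat 1 it was -0.11. The 2 single drugs could be tested against each other, and SAA1 was lower under paclitaxel than under almonertinib by -1.24 ± 0.13 (edgeR adjusted p = 1.7e-06).

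SAA2 (chromosome 11, 18239223-18248643, minus strand) is the neighbour and near copy of SAA1. Coding sequences of SAA1-203 and SAA2-205 have 358 of 369 bases in common (97%), with an identical stretch of 186 bases, so the split of reads between both genes is uncertain. SAA2 also overlaps the SAA2-SAA4 readthrough gene. In PC9 it had 2, 1 and 5 counts in the controls, 16, 27 and 13 under almonertinib, 8, 11 and 8 under paclitaxel and 20, 20 and 24 under the combination. Every treated library held more counts than every control, but scaled to library size paclitaxel repeat 1 (0.348 CPM) lay just under control repeat 3 (0.354 CPM). The ratio of summed counts to control, corrected for library size, was 5.33 for almonertinib (exact 95% interval 2.53 to 12.9), 2.43 for paclitaxel (1.07 to 6.18) and 6.13 for the combination (2.93 to 14.8). These intervals cover counting error only. No control library reached the minimum of the count filter (0.478 CPM, in at least 3 libraries), and SAA2 passed it through the treated groups. A gene kept this way had to differ from the controls, so no test against control is given. Under paclitaxel 1 of 3 libraries reached that minimum, so comparisons with paclitaxel are given with no test either. SAA2 stood 1.34 ± 0.36 higher under the combination than under paclitaxel on the log2 scale. From almonertinib the combination differed by 0.20 ± 0.32 (edgeR adjusted p = 0.699). Between paclitaxel and almonertinib the value was -1.14 ± 0.37. It was -0.86 without almonertinib repeat 2, -1.02 without paclitaxel repeat 1 and -1.11 without paclitaxel repeat 3. On library totals alone it was -0.94, and with all 24 libraries in the fit -1.11.

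BPIFB1 (chromosome 20, 33273480-33309878, plus strand, ENSG00000125999), a secreted lipid-binding protein of airway secretory cells, followed the order of SAA1. The 3 PC9 controls stood at 1.05, 1.83 and 1.56 CPM. Almonertinib libraries stood at 15.5, 15.5 and 19.2 CPM, paclitaxel libraries at 6.96, 6.48 and 5.47 CPM and combination libraries at 18.6, 19.6 and 17.3 CPM. Controls, paclitaxel and the pair of almonertinib-containing groups did not overlap, while almonertinib and the combination did. The log2 difference from control was 3.53 ± 0.19 for almonertinib, 2.10 ± 0.20 for paclitaxel and 3.66 ± 0.19 for the combination, with no test. BPIFB1 was lower under paclitaxel than under almonertinib by -1.43 ± 0.15 (adjusted p = 2.2e-06).

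By Pearson correlation of log2 CPM over the 12 PC9 libraries, which share 4 groups and so are a description only, the genes most like SAA1 among 9414 candidates were BPIFB1 (0.988), HCFC1R1 (0.981) and PACSIN1 (0.980). Those most like BPIFB1 were SAA1, GGT6 (0.987) and ERBB3 (0.987), a receptor partner of EGFR. ERBB3 stood at 82.2 ± 8.81 CPM in PC9 controls, 178 ± 8.45 under almonertinib, 145 ± 4.41 under paclitaxel and 198 ± 6.35 under the combination. Across H1975 the same gene stood at 54.9 ± 8.05, 76.4 ± 7.89, 66.1 ± 7.26 and 97.3 ± 0.924 CPM in that order, where BPIFB1 had 2 counts in all 12 libraries.

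**Figure D2:**
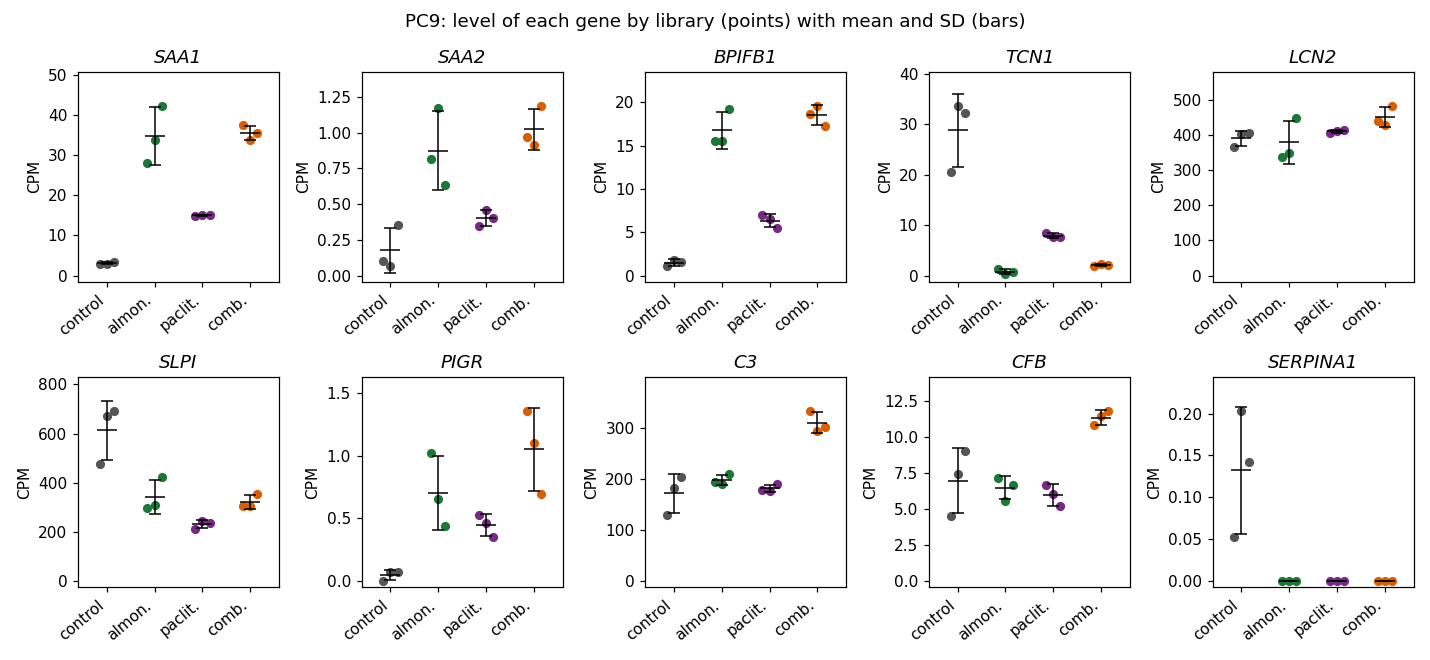
Level of each gene in PC9 in CPM (linear axes that differ between panels) by group: control, almonertinib (almon.), paclitaxel (paclit.) and combination (comb.), with a point for each library and bars for the mean ± SD of 3. SAA1 and BPIFB1 lie lowest in the controls, TCN1 lies highest there, and C3 and CFB lie highest under the combination.

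TCN1 (chromosome 11, 59852800-59866575, minus strand, ENSG00000134827), the cobalamin carrier of secretions, had the reverse order in PC9. Control libraries held 20.5, 33.7 and 32.3 CPM. Almonertinib left 1.23, 0.391 and 0.729 CPM, paclitaxel 8.48, 7.65 and 7.63 CPM and the combination 1.89, 2.25 and 2.18 CPM. None of the 4 groups overlapped. The log2 difference from control was -5.21 ± 0.27 for almonertinib, -1.88 ± 0.20 for paclitaxel and -3.77 ± 0.23 for the combination, with no test. The combination level lay between the single drugs, 1.44 ± 0.32 above almonertinib and -1.89 ± 0.24 from paclitaxel. Without almonertinib repeat 1 the first of these was 1.91, and without almonertinib repeat 2 it was 1.09. TCN1 stood higher under paclitaxel than under almonertinib by 3.33 ± 0.28. Under almonertinib 2 of 3 libraries reached the minimum of the count filter, so this value is given with no test either.

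The genes most like TCN1 over the 12 PC9 libraries were TPBG (0.986), APCDD1L (0.981) and CEACAM5 (0.980). CEACAM5, an adhesion glycoprotein of epithelial surfaces, stood at 21.4 ± 7.21 CPM in controls, 3.63 ± 0.509 under almonertinib, 12.2 ± 1.84 under paclitaxel and 6.22 ± 0.317 under the combination.

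PIGR (chromosome 1, 206928518-206946466, minus strand) was close to absent in PC9 controls and appeared at low counts under each treatment. Counts were 0, 1 and 1 in the controls, 20, 15 and 9 under almonertinib, 12, 11 and 7 under paclitaxel and 28, 24 and 14 under the combination. Every treated library held more PIGR counts than any control. The ratio of summed counts to control, corrected for library size, was 16.7 for almonertinib (exact 95% interval 4.37 to 143), 10.8 for paclitaxel (2.73 to 93.1) and 25.3 for the combination (6.73 to 213). As for SAA2, no control library reached the minimum of the count filter, and no test against control is given. That minimum was reached by 2 of 3 libraries under paclitaxel and by 2 of 3 under almonertinib. Comparisons among the treated groups are therefore given with no test either. PIGR stood 1.24 ± 0.38 higher under the combination than under paclitaxel on the log2 scale. Without paclitaxel repeat 3 this was 1.09, and without combination repeat 1 it was 1.02. Against almonertinib the combination differed by 0.57 ± 0.36.

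LCN2 (chromosome 9, 128149071-128153455, plus strand), which binds bacterial siderophores, stayed near one level in PC9. It held 365, 402 and 404 CPM in controls, 339, 349 and 449 under almonertinib, 406, 411 and 413 under paclitaxel and 440, 429 and 483 under the combination. The almonertinib libraries spanned the control range. All paclitaxel libraries (from 406 CPM) and combination libraries (from 429 CPM) lay above the highest control (404 CPM). On the log2 scale the combination stood 0.20 ± 0.10 above control, with no test. LCN2 passed no test in PC9: the log2 change was -0.04 ± 0.11 for almonertinib (adjusted p = 0.785) and 0.05 ± 0.10 for paclitaxel (0.705). The paclitaxel value depends on the scale. With library totals alone it was 0.31 (adjusted p = 0.00092), where the median of all genes moved by 0.25, and after removal of the part that follows transcript length and GC content (the length and GC trend) it was 0.46 (3.7e-05). The combination exceeded almonertinib by 0.24 ± 0.10 (0.119), without almonertinib repeat 3 by 0.38 (0.00084), on library totals alone by 0.28 (0.00583) and with the trend removed by 0.34 (0.00115). It exceeded paclitaxel by 0.15 ± 0.10 (0.248), and with only the groups compared in the fit by 0.15 (0.0487). Paclitaxel exceeded almonertinib by 0.09 ± 0.10 (0.537), and without almonertinib repeat 3 by 0.23 (0.0169).

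SLPI (chromosome 20, 45252239-45254564, minus strand), an inhibitor of neutrophil elastase, fell in PC9 under each single drug. Controls held 475, 672 and 692 CPM, almonertinib libraries 298, 308 and 422, paclitaxel libraries 212, 244 and 236, and combination libraries 305, 304 and 355. All 9 treated libraries lay below the controls, and paclitaxel libraries were lowest. SLPI fell by 0.83 ± 0.14 on the log2 scale under almonertinib (adjusted p = 0.00014) and by 1.43 ± 0.15 under paclitaxel (1.8e-06). The drop was deeper under paclitaxel than under almonertinib, at -0.60 ± 0.14 (0.00302), or -0.57 (0.0544) with all 24 libraries in the fit. The combination lay above paclitaxel by 0.49 ± 0.14 (0.0113), a call lost without paclitaxel repeat 1 (0.42, 0.0625) without combination repeat 3 (0.42, 0.0551) and with all 24 libraries in the fit (0.48, 0.106). The combination differed from almonertinib by -0.11 ± 0.14 (0.645).

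C3 (chromosome 19, 6677704-6730562, minus strand), the central protein of complement, was highest in PC9 under the combination. Controls held 130, 182 and 203 CPM, almonertinib libraries 195, 190 and 210, paclitaxel libraries 177, 177 and 189, and combination libraries 333, 294 and 302. Only the combination libraries lay above all others. C3 was higher under the combination than under almonertinib by 0.63 ± 0.12 (adjusted p = 0.00173) and than under paclitaxel by 0.79 ± 0.12 (8.7e-05). Each single drug left C3 within 0.21 ± 0.12 (almonertinib, 0.144) and 0.06 ± 0.12 (paclitaxel, 0.704) of control. Without control repeat 3 the almonertinib value was 0.34 (0.0302), and on library totals alone the paclitaxel value was 0.32 (0.0283).

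CFB (chromosome 6, 31945650-31952084, plus strand), the protease of the alternative pathway that binds C3b, had the same order at a lower level. It overlaps C2 and a C2-CFB readthrough gene, so some reads could belong to either. Controls held 4.50, 7.38 and 8.99 CPM, almonertinib libraries 7.17, 5.57 and 6.66, paclitaxel libraries 6.65, 6.02 and 5.17, and combination libraries 10.8, 11.4 and 11.8. The 3 combination libraries lay above the 9 others. CFB was higher under the combination than under almonertinib by 0.80 ± 0.19 (adjusted p = 0.00801) and than under paclitaxel by 0.94 ± 0.19 (0.00095). The single drugs gave -0.08 ± 0.20 (0.738) and -0.23 ± 0.20 (0.354) against control, and without control repeat 1 the paclitaxel value was -0.47 (0.0319).

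SERPINA1 (chromosome 14, 94376747-94390693, minus strand), the inhibitor of neutrophil elastase in plasma, had 6 counts over the 3 PC9 controls and 0 in each of the 9 treated libraries. A count of 0 allows up to 3 counts in a library. Controls and treated libraries did not overlap, at 1 to 3 counts against 0, and the gene failed the count filter within PC9 and was not tested there.

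Whether the 2 drugs add up was tested as an interaction: the log2 change under the combination minus the sum of the changes under each drug alone. In PC9, 4 genes with a test were over the count minimum in every group, and 3 of these 4 passed, beside 45.5% of all 12796 genes. SAA1 and BPIFB1 were over it too, but have no test here. C3 exceeded the sum by 0.57 ± 0.17 (adjusted p = 0.012), CFB by 1.03 ± 0.28 (0.00672) and SLPI by 1.33 ± 0.20 (0.0001). For SLPI the combination fell less far than the sum of the single falls. C3 lost its call on library totals alone (0.34, 0.104), with the length and GC trend removed (0.35, 0.0641) and with all 24 libraries in the fit (0.57, 0.0886). LCN2 (0.19 ± 0.15, 0.313) did not pass, but passed without almonertinib repeat 3 (0.31, 0.0103). Untested values were -2.65 for PIGR, -1.02 for SAA2, -2.25 for SAA1, -1.96 for BPIFB1 and 3.32 for TCN1.

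In PC9 4 genes with a test against control, LCN2, SLPI, C3 and CFB, were over the count minimum in every library, and the counts here are over them. Under almonertinib 1 of 4 changed (SLPI, lower), beside 56.7% of all genes. Under paclitaxel 1 of 4 changed (SLPI, lower), beside 55% of all genes. Both shares lie below the background, but 4 genes are too few to read this as a result. The shares leave out SAA1, BPIFB1, TCN1, SAA2 and PIGR, which have no test against control. Under almonertinib the log2 changes of those genes were 3.51, 3.53, -5.21, 2.36 and 3.88, beside -0.83 for SLPI. The shares therefore do not describe the members as a set. For the combination against control, the comparison behind the choice, 50.7% of all genes were called, and no gene here was tested. The combination differed from almonertinib in 2 of 4 genes (C3 and CFB, both higher), beside 20.1% of all genes. The 2570 genes behind that share became 1274 without combination repeat 1, 1616 without combination repeat 3 and 4184 without almonertinib repeat 3. The combination differed from paclitaxel in 3 of 4 (SLPI, C3 and CFB, all higher), beside 44.1% of all genes. Paclitaxel differed from almonertinib in 3 of 6 (SAA1, BPIFB1 and SLPI, all lower, with SAA1 and BPIFB1 tested here too), beside 43.1%. On library totals alone the share of higher genes among those called was 76% for paclitaxel against control (49% in the fit used here), 71.8% for paclitaxel against almonertinib (49.5%), 29.3% for the combination against paclitaxel (49.2%) and 28.5% for the interaction (48.5%). Measures of the libraries moved with the PC9 groups. Longer transcripts sat higher in paclitaxel libraries and lower in control libraries: the rank correlation over genes between transcript length and the log2 deviation from the mean of the line averaged 0.301 ± 0.0271 (SD) in the former and -0.195 ± 0.0399 in the latter. Mitochondrial genes took a share of all counts of 0.638% ± 0.196 (SD, n = 3) under almonertinib and 1.30% ± 0.0792 in controls. Blood cell markers summed to 1.06 to 1.63 CPM in controls and 2.201 to 4.668 CPM in treated libraries. Epithelial markers summed to 15600 to 17820 CPM under paclitaxel and 21980 to 25350 CPM in controls. Club and goblet cell markers summed to 55.3 to 64.4 CPM under almonertinib and 73.6 to 126 CPM in controls. Fibroblast markers stood at 12.5 to 17.5 CPM in controls, 11.04 to 11.85 CPM under paclitaxel and 21.7 to 22.7 CPM under the combination. In these last sets the other treated groups overlapped the controls. The part of these measures in the results was not tested, beyond the alternative fits given beside each gene.

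**Figure D3:**
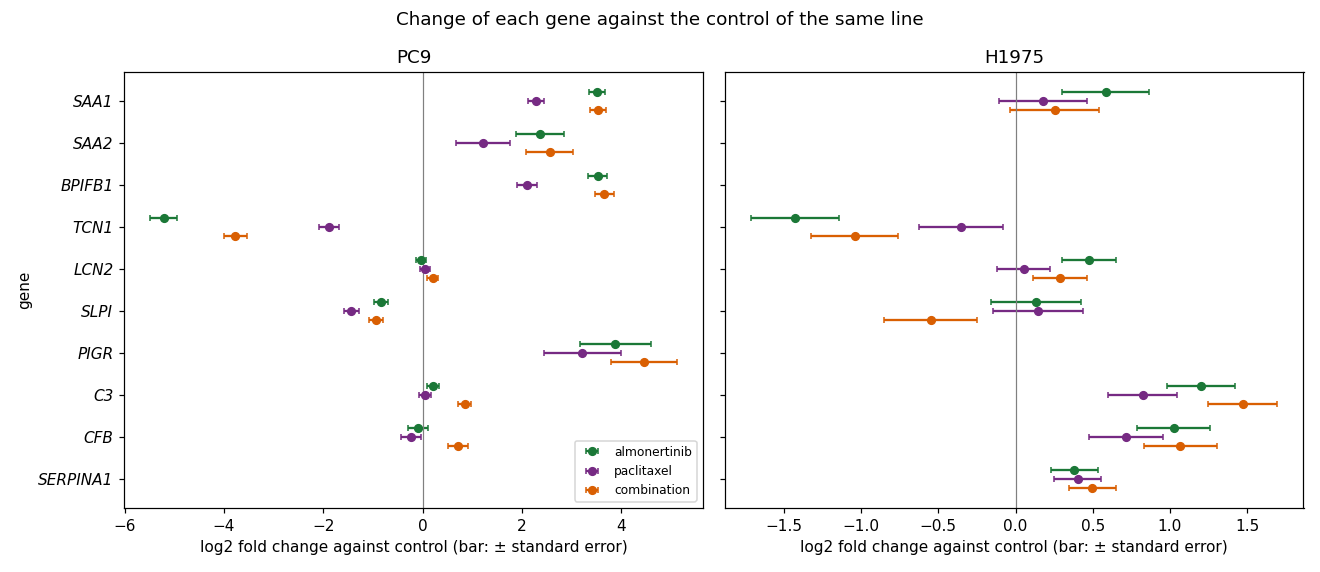
Log2 fold change of each gene against the control of the same line with its standard error (bars), for almonertinib, paclitaxel and the combination, in PC9 (left) and H1975 (right, a narrower axis), with no point for a gene that failed the count filter. In PC9 PIGR, SAA1, BPIFB1 and SAA2 lie to the right, PIGR furthest, and TCN1 far to the left. PIGR and SAA2 had few counts in the controls and have no test against control. In H1975 the widest changes are those of C3, TCN1 and CFB.

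In H1975, C3 and CFB were the members that rose, and TCN1 fell under almonertinib. C3 held 8.37, 8.80 and 9.45 CPM in controls, 29.8, 17.2 and 15.3 under almonertinib, 18.7, 14.9 and 13.99 under paclitaxel and 22.9, 24.6 and 27.1 under the combination. Every treated library lay above every control. C3 rose by 1.20 ± 0.22 under almonertinib (adjusted p = 0.00877) and by 1.47 ± 0.22 under the combination (0.00229). Under paclitaxel the change was 0.82 ± 0.22 (0.155). It passed the test without the 3 libraries that stand apart (0.74, 0.00494), with DESeq2 (0.82, 0.0352), with only the groups compared in the fit (0.84, 0.0256), with all 24 libraries in the fit (0.83, 0.0228) and with the length and GC trend removed (0.90, 0.00528). The almonertinib call was lost without control repeat 1 (1.16, 0.0596), without control repeat 2 (1.19, 0.0506) and with only the groups compared in the fit (1.16, 0.132). Without the 3 libraries it was 0.94 (0.00014).

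CFB in H1975 held 1.41, 1.18 and 1.42 CPM in controls, 2.71, 2.90 and 2.65 under almonertinib, 2.51, 2.08 and 2.11 under paclitaxel and 2.31, 2.90 and 3.33 under the combination. Controls again did not overlap with any treated library. CFB rose by 1.02 ± 0.24 under almonertinib (adjusted p = 0.0358) and by 1.07 ± 0.24 under the combination (0.0267). With the repeat number as a block these became 1.03 (0.0655) and 1.06 (0.0529). The almonertinib call was also lost without any 1 control (0.0676 to 0.183), without almonertinib repeat 2 (0.123) or 3 (0.0818), and with only the groups compared in the fit (0.246). The combination call was lost without control repeat 1 (0.127) or 2 (0.129) and without combination repeat 2 (0.117) or 3 (0.167). Without the 3 libraries that stand apart, the changes were 1.10 (0.0035) and 1.12 (0.00258).

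TCN1 in H1975 held 5.28, 3.55 and 7.23 CPM in controls, 1.28, 2.18 and 2.44 under almonertinib, 4.40, 4.69 and 3.66 under paclitaxel and 2.63, 2.64 and 2.65 under the combination. The libraries with almonertinib, alone or combined, lay below all controls. TCN1 fell by 1.43 ± 0.29 on the log2 scale under almonertinib (adjusted p = 0.0141). The call was lost without control repeat 1 (-1.44, 0.0564), without control repeat 3 (-1.14, 0.0576), on library totals alone (-1.33, 0.0856) and with only the groups compared in the fit (-1.46, 0.198). Without the 3 libraries it was -0.93 (0.00434). Under the combination TCN1 stood -1.04 ± 0.28 from control (0.0646). That value passed the test without the 3 libraries (-0.76, 0.0102), with DESeq2 (-1.02, 0.0191), with all 24 libraries (-1.02, 0.0176), with only the groups compared (-1.04, 0.0109) and with the length and GC trend removed (-0.84, 0.0176).

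SERPINA1, the most abundant of the genes in H1975 per length, held 102, 111 and 99.1 CPM in controls, 167, 132 and 111 under almonertinib, 135, 133 and 148 under paclitaxel and 151, 146 and 147 under the combination. Every treated library lay above the highest control, the third almonertinib repeat by less than 1 CPM, but no change passed the test, at 0.38 ± 0.15 (adjusted p = 0.331), 0.40 ± 0.15 (0.425) and 0.50 ± 0.15 (0.0977). For the combination it passed without the 3 libraries (0.47, 0.00178), with DESeq2 (0.51, 0.0264), with only the groups compared (0.50, 0.011) and with all 24 libraries (0.51, 0.0272). For paclitaxel it passed without the 3 libraries (0.39, 0.0355) and with the length and GC trend removed (0.43, 0.0126).

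In H1975 SAA1 showed no called change, and SAA2, PIGR and BPIFB1 were at or near 0 counts. SAA1 held 2.00, 1.47 and 1.84 CPM in H1975 controls, 3.49, 2.48 and 2.23 under almonertinib, 1.70, 1.61 and 2.76 under paclitaxel and 1.66, 2.14 and 2.60 under the combination. Its changes of 0.58 ± 0.28 (adjusted p = 0.498), 0.18 ± 0.29 (0.99982) and 0.25 ± 0.29 (0.666) did not pass the test. SAA2 had 0 to 4 counts per library, PIGR 0 to 2, and BPIFB1 2 counts in combination repeat 1 and 0 in the other 11 libraries. These 3 genes failed the count filter in H1975. LCN2 ranged from 10.1 to 17.1 CPM and SLPI from 4.62 to 12.1 CPM over the 12 libraries. LCN2 changed by 0.47 ± 0.17 under almonertinib (0.256), and without the 3 libraries by 0.41 (0.0485). SLPI under the combination stood -0.55 ± 0.30 from control (0.333), and with only the groups compared -0.55 (0.0472).

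**Figure D4:**
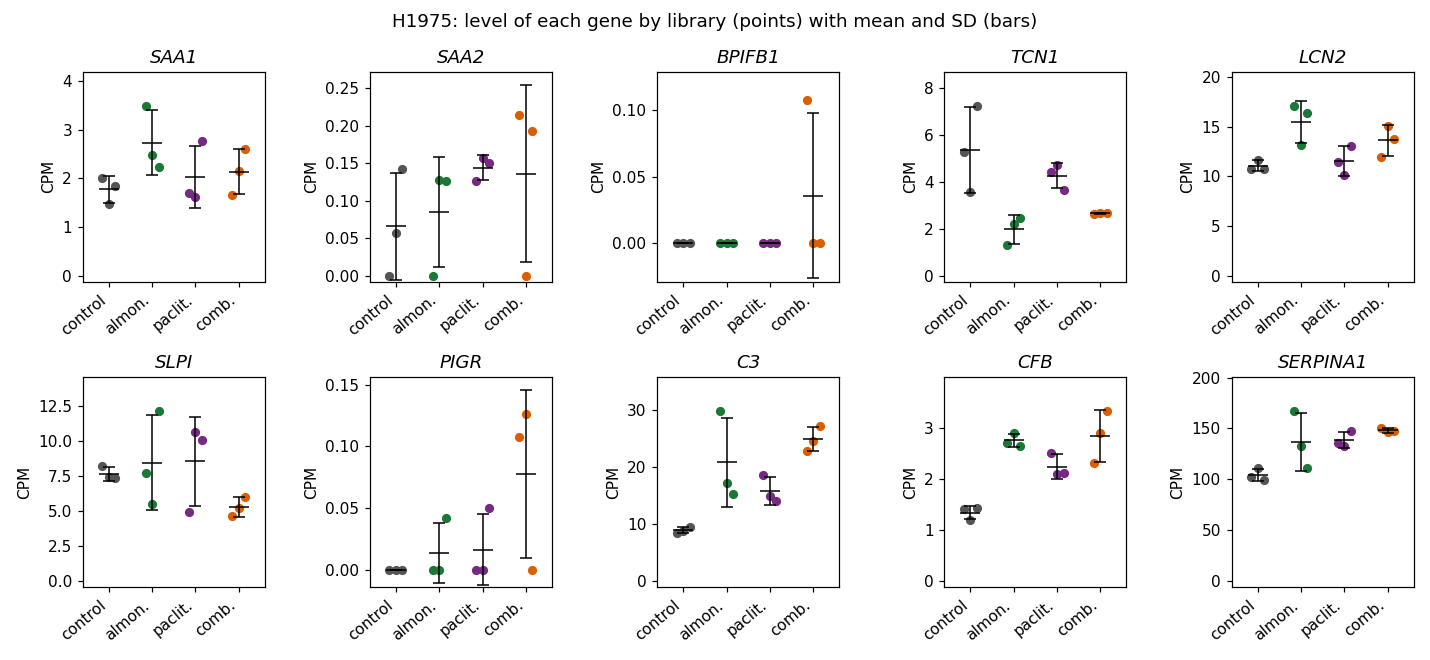
Level of each gene in H1975 in CPM (linear axes that differ between panels) by group: control, almonertinib (almon.), paclitaxel (paclit.) and combination (comb.), with a point for each library and bars for the mean ± SD of 3. C3 and CFB lie lowest in the controls, and almonertinib repeat 1 lies apart from its group for C3 and SERPINA1.

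Of 7 genes tested in H1975, 3 changed under almonertinib, beside 1.95% of all 12345 genes, and 2 under the combination, beside 2.46%. With the repeat number as a block 1 of 7 changed under the combination. Under paclitaxel 0 of 7 changed by edgeR, beside 0.64% of all genes, with 3 of 7 at an unadjusted p under 0.05 and 1 by DESeq2. Between treatments edgeR called 0 of 7 and 0% of all genes in each of 3 comparisons. For the combination against almonertinib, 1 of 7 genes and 1230 of all genes had an unadjusted p under 0.05, and DESeq2 called 0 of 7 and 41 of all genes. For the combination against paclitaxel the numbers were 3 of 7 and 1704, with 0 of 7 and 478 by DESeq2. For paclitaxel against almonertinib they were 2 of 7 and 484, with 0 of 7 and 2 by DESeq2. The interaction called 0 of 7 by edgeR (0 at an unadjusted p under 0.05, 0 by DESeq2), beside 0.672% of all genes.

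Leaving out the 3 libraries changed these counts. The combination then exceeded almonertinib in C3 by 0.59 (adjusted p = 0.00277) and lay below it in SLPI by -0.76 (0.0225). Without almonertinib repeat 1 alone, the C3 difference was 0.58 (0.0371). Against paclitaxel the combination was higher in C3 (0.79, 0.00031) and lower in SLPI (-0.96, 0.0056) and TCN1 (-0.65, 0.0266). Paclitaxel exceeded almonertinib in TCN1 (0.82, 0.0142). The SLPI interaction was then -1.15 (0.0193). Genes called over the whole table rose with them, to 4255 of 12390 for the combination against almonertinib, 4087 against paclitaxel, 4016 for paclitaxel against almonertinib and 4077 for the interaction. Against control they rose from 241 to 5630 under almonertinib and from 304 to 4328 under the combination.

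SAA1, TCN1, LCN2, SLPI, C3 and CFB passed the count filter in both lines, but the choice used PC9 values of SAA1 and TCN1. The drug responses of the other 4 genes, LCN2, SLPI, C3 and CFB, were compared between PC9 and H1975 in a fit of all 24 libraries. Restricting the test to them was decided after their levels were seen. For almonertinib 3 of 4 differed, beside 16.6% of all genes: the PC9 response minus the H1975 response was -0.99 ± 0.33 for SLPI (adjusted p = 0.0436), -1.01 ± 0.26 for C3 (0.0096) and -1.13 ± 0.31 for CFB (0.0127). LCN2 gave -0.53 ± 0.19 (0.0595), and passed without PC9 almonertinib repeat 3 (-0.67, 0.0159), without H1975 almonertinib repeat 2 (-0.63, 0.0215), on library totals alone (-0.56, 0.0118) and with the length and GC trend removed (-0.57, 0.017). For paclitaxel 3 of 4 differed, beside 17.1%: SLPI by -1.58 ± 0.33 (0.00348), C3 by -0.76 ± 0.26 (0.0493) and CFB by -0.94 ± 0.31 (0.0398), with LCN2 at 0.01 ± 0.20. With the repeat number as a block, C3 (-0.73, 0.0507) and CFB (-0.92, 0.0557) lost their calls under paclitaxel. Both lost their calls in 11 of 12 fits that left out 1 library, all but the fit without PC9 control repeat 1. C3 also lost it on library totals alone (-0.58, 0.0967) and under a stricter filter (-0.69, 0.0562). CFB also lost it on library totals alone (-0.76, 0.13), with the length and GC trend removed (-0.71, 0.117) and without the 3 H1975 libraries that stand apart (-0.86, 0.0773). The almonertinib difference of SLPI lost its call in 8 of 12 such fits, all but those without H1975 almonertinib repeat 1 or 2, PC9 almonertinib repeat 3 or PC9 control repeat 1, and lay furthest off without H1975 almonertinib repeat 3 (-0.58, 0.196). That of CFB lost its call without PC9 control repeat 3 (-0.88, 0.0544).

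Gene lists around the members were counted beside them. The lists were written with earlier results of these data known, so they are a description. Counts are over the genes that passed the count filter, some of them through treated groups alone. In PC9 the share of all genes called was 56.7% under almonertinib, 55% under paclitaxel, 20.1% for the combination against almonertinib and 44.1% against paclitaxel. Of 28 complement genes 17 could be tested in PC9. Almonertinib raised 10 and lowered 1 of the 17, beside the 56.7% of all genes. C1R, a protease of the first complement component, stood at 16.9 ± 2.63 CPM in controls and 71.6 ± 8.10 under almonertinib, a rise of 2.10 ± 0.11 (adjusted p = 3.3e-10). SERPING1, the C1 inhibitor, rose by 2.35 ± 0.19 (4.3e-08). CD55, which speeds the decay of the C3 convertase, fell by 1.42 ± 0.13 (2.0e-07). Paclitaxel raised 8, led by C1R (1.90 ± 0.11) and C1S (2.04 ± 0.17), and lowered 3, among them C2 (-0.78 ± 0.27). The combination differed from almonertinib in 3 of 17 (20.1% of all genes) and from paclitaxel in 7 of 17 (44.1%), both close to the background. The median log2 change of the 17 was 0.82 under almonertinib and 0.71 under paclitaxel, beside 0.03 and -0.01 over all genes.

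Of 32 airway secretory and mucus genes 15 could be tested in PC9. Almonertinib raised 8 and lowered 5 (56.7% of all genes called), and paclitaxel raised 2 and lowered 5 (55%). SPDEF, a factor of goblet cell identity, rose by 1.41 ± 0.16 under almonertinib (adjusted p = 2.3e-06), from 11.7 ± 3.47 to 30.7 ± 1.62 CPM. The mucin MUC5B fell by 1.73 ± 0.18 (9.2e-07), from 95.1 ± 25.6 to 28.6 ± 5.08 CPM. MUC4 was higher under the combination than under almonertinib by 1.38 ± 0.17 (4.2e-05), and MUC5B by 1.16 ± 0.18 (0.00035). Under the combination MUC4 stood at 246 CPM, above its control mean of 126 CPM. MUC5B stood at 64.3 ± 13.1 CPM there, under its control mean. The mucin MUC1 was higher under the combination than under paclitaxel by 1.39 ± 0.15 (2.4e-06).

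Of 31 antimicrobial and antiprotease genes 12 could be tested in PC9, and 8 of the 12 fell under paclitaxel, where 55% of all genes were called in either direction. PI3 (elafin), a relative of SLPI, stood at 176 ± 50.9 CPM in controls, 13.7 ± 3.37 under almonertinib and 15.3 ± 1.44 under paclitaxel. It fell by 3.67 ± 0.20 (adjusted p = 3.1e-10) and 3.55 ± 0.20 (2.6e-09). Under almonertinib (56.7% of all genes) 5 of the 12 fell and 2 rose, the latter WFDC2 (0.46 ± 0.14) and WFDC3 (0.71 ± 0.23). WFDC2 and SERPING1 stand in more than 1 list.

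Of 24 other acute phase genes 3 passed the count filter in PC9. One of them, the iron and copper protein ceruloplasmin (CP), had 2 counts over the PC9 controls, 151 under almonertinib, 31 under paclitaxel and 66 under the combination. It passed the filter through treated libraries, and no test is given. Of 15 genes of cobalamin handling 13 could be tested. Almonertinib raised 3 and lowered 2, a share below the 56.7% of all genes. TCN2, the plasma carrier related to TCN1, fell by 1.20 ± 0.15 (6.2e-06), from 90.6 ± 20.1 to 39.3 ± 8.51 CPM, and MMUT, a mitochondrial cobalamin enzyme, rose by 1.44 ± 0.20 (1.1e-05). Paclitaxel also raised 3 and lowered 2 of them, TCN2 by -1.12 ± 0.15.

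Of 33 inducing cytokines, receptors and factors 31 could be tested in PC9. Almonertinib raised 10 and lowered 11 (56.7% of all genes called), and paclitaxel raised 9 and lowered 12 (55%). IL6, the main inducer of the acute phase response, stood at 63.4 ± 19.4 CPM in PC9 controls, 2.21 ± 0.648 under almonertinib, 6.58 ± 0.735 under paclitaxel and 9.92 ± 0.942 under the combination. It fell by 4.82 ± 0.24 (adjusted p = 1.1e-10) and by 3.28 ± 0.21 (1.1e-08) under the single drugs. SAA1, which has no test in these comparisons, stood higher in the same libraries. A link between IL6 and SAA1 was not tested. CEBPA rose under almonertinib by 1.68 ± 0.11 (3.7e-09) and NFKB2 fell by 0.96 ± 0.10 (5.5e-07). CEBPD was higher under the combination than under paclitaxel by 1.47 ± 0.10 (5.4e-08). Of 21 receptors and partners of the members, 13 could be tested, and almonertinib raised 5 and lowered 3, close to the 56.7% of all genes. MAL2, a protein of transcytosis, was among those lowered (-0.92 ± 0.10).

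In H1975, 12 complement genes and 8 airway secretory genes could be tested. Complement genes C1S and C1R rose under almonertinib, by 1.87 ± 0.35 (adjusted p = 0.00929) and 1.26 ± 0.27 (0.0206), and under the combination, by 2.01 ± 0.35 (0.00685) and 1.68 ± 0.27 (0.00303). AGT, an acute phase gene, rose by 1.40 ± 0.29 (0.017) and 1.82 ± 0.28 (0.0029). MUC1 rose by 0.88 ± 0.22 (0.0495) and 1.25 ± 0.22 (0.00654), and MUC16 rose under the combination by 1.71 ± 0.33 (0.0144). CEBPD rose under almonertinib by 0.95 ± 0.20 (0.0196). Under paclitaxel 3 genes of the lists were called, beside 0.64% of all genes. Of 10 receptors and partners tested it was PLSCR1, at 0.86 ± 0.16 (0.0205). Of 8 lung epithelium markers tested they were NAPSA (2.62 ± 0.34, 0.00093) and NKX2-1 (0.74 ± 0.14, 0.0186). Under almonertinib and under the combination 1 of the 10 and 2 of the 8 were also called higher. The shares of all genes there were 1.95% and 2.46%.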

How the data were processed

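Per the labels' protocols, TRIzol served for RNA isolation and a SMART-RNAseq kit for library construction. The authors deposited 1 table of unnormalised whole-number counts, with 19702 Ensembl genes and 24 libraries. Per the submitters' processing notes HISAT2 2.2.1, HTSeq and GRCh38 were used. The strand setting and annotation of the counting are not given in the sources used here. Reads of overlapping or antisense genes and near copies may therefore be shared.

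From these counts, edgeR 4.0.16 (R 4.3.3, limma 3.58.1) fitted each line on its 12 libraries with filterByExpr, TMM factors and a two-sided quasi-likelihood test per comparison. This left 12796 genes in PC9 (9 of the 10 genes, SAA2 and PIGR through treated groups alone) and 12345 in H1975 (7 of 10). Comparisons between lines used all 24 libraries (13380 genes). P-values were Benjamini-Hochberg adjusted over all genes of a comparison, and an adjusted p under 0.05 is a call. In all, 17 comparisons were fitted, 16 with a test. Levels are CPM on TMM-scaled library sizes, and ± on a log2 value is an approximate standard error. Per-length levels divide by a GENCODE v29 transcript length. Per-library correlations with transcript length use a library's log2 deviation from the mean of its line. The scripts were tested on simulated counts.

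Total counts of 14232299 to 24245314 leave genes under about 3 counts in a library at the limit of detection. Alternatives were a count test by DESeq2 1.42.0, scaling by RLE, a filter left out or made stricter, the repeat number as a block, only the groups compared, all 24 libraries, and leaving out each library. Added after the data were seen were library totals alone, a length and GC trend removed, and leaving out 3 H1975 libraries together. Whether repeat numbers pair libraries was checked on deviations from group means over well-expressed genes. All 3 same-numbered pairs of libraries correlated above 0.1 between PC9 control, almonertinib and paclitaxel (0.154 to 0.584). The same held between H1975 control and combination (0.17 to 0.493). Between the other groups at least 1 of the 3 lay below 0.1, with values from -0.606 to 0.616.

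The members and gene lists were chosen with earlier results of these data known. Named in the text are all 10 members, from each list up to 2 higher and 2 lower called genes with the smallest p, and the 3 genes most like SAA1, BPIFB1 and TCN1 by correlation among genes with a mean of at least 5 CPM. One gene of the lists that the naming rule would print is not reported here.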

Additional observations from a re-analysis of the deposited data

Results flagged for a closer look

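The responses of 3 genes differed between PC9 and H1975 by a test of the difference itself, with the dose also different between the lines. For almonertinib the PC9 log2 response minus the H1975 response was -0.99 for SLPI, -1.01 for C3 and -1.13 for CFB. For paclitaxel it was -1.58 for SLPI, -0.76 for C3 and -0.94 for CFB. With the repeat number as a block the paclitaxel differences of C3 (adjusted p = 0.0507) and CFB (0.0557) lost their calls, and both lost them in 11 of 12 fits that left out 1 library. The almonertinib difference of SLPI lost its call in 8 of 12 such fits and that of CFB in 1 of 12. C3 and CFB rose in H1975 under almonertinib and did not pass the test in PC9. In both lines the mean of each was highest under the combination, in H1975 with libraries that overlapped those under almonertinib. SLPI fell in PC9 and did not pass the test in H1975.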

How the results depend on the processing

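Each alternative changed 1 choice. Numbers of members called here are over all that passed the count filter, apart from SAA1, BPIFB1 and TCN1 where the choice used their values. These are 6 genes in PC9 (9 for paclitaxel against almonertinib), with SAA2 and PIGR among them. They are 7 in H1975 and 4 for the responses between lines. The calls of SAA2 and PIGR are not read as results, because both were under the count minimum in control and some paclitaxel libraries. Nor is that of TCN1 for paclitaxel against almonertinib in PC9, where 2 of 3 almonertinib libraries reached the minimum. The number of members called in PC9 under almonertinib was 1 (3 as fitted) with the stricter filter, which removes SAA2 and PIGR. Under paclitaxel in PC9 it was 1 with the stricter filter or with only the groups compared, and 5 on library totals alone. For the combination against paclitaxel in PC9 it was 3 with the stricter filter. For paclitaxel against almonertinib in PC9 it was 3 with all 24 libraries. In H1975 under almonertinib it was 1 with the stricter filter and 0 with only the groups compared. In H1975 under paclitaxel (0 in the report) it was 1 with only the groups compared, all 24 libraries or DESeq2, and 2 with the trend removed or without the 3 libraries. In H1975 under the combination (2 in the report) it was 1 with the stricter filter or the replicate block, 5 with only the groups compared, and 4 with all 24 libraries, DESeq2, the trend removed or without the 3 libraries. For the H1975 combination against paclitaxel it was 2 with only the groups compared, 1 with all 24 libraries and 3 without the 3 libraries. Without the 3 libraries it was 2 for the H1975 combination against almonertinib, 1 for paclitaxel against almonertinib and 1 for the interaction. The paclitaxel response between lines gave 1 with the stricter filter, library totals or the replicate block.

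Members called when 1 library was left out at a time follow, each with the share of all genes called in the full fit. PC9 gave 3 to 4 of 6 (almonertinib, 56.7%) and 2 to 3 of 6 (paclitaxel, 55%). The PC9 combination gave 2 to 3 of 6 against almonertinib (20.1%) and 4 to 5 of 6 against paclitaxel (44.1%). PC9 paclitaxel against almonertinib gave 4 to 6 of 9 (43.1%), and the PC9 interaction 3 to 5 of 6 (45.5%). H1975 gave 0 to 3 of 7 (almonertinib, 1.95%) and 1 to 2 of 7 (combination, 2.46%). The H1975 combination against almonertinib gave 0 to 1 of 7 (0%). Between lines it was 1 to 4 of 4 (almonertinib, 16.6%) and 1 to 3 of 4 (paclitaxel, 17.1%). The replicate block changed no member's call in PC9 and, in H1975, that of CFB under almonertinib and the combination.

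Values near 0 that changed sign, none of them called, were as follows. On library totals alone these were PC9 almonertinib LCN2 0.0030, PC9 paclitaxel CFB 0.039, PC9 combination against paclitaxel LCN2 -0.034, PC9 paclitaxel against almonertinib C3 0.059 and CFB 0.071, the PC9 interaction of LCN2 -0.037, and H1975 paclitaxel against almonertinib SLPI -0.039. With the trend removed they were PC9 almonertinib CFB 0.090, PC9 paclitaxel CFB 0.00051, PC9 combination against paclitaxel LCN2 -0.118, the PC9 interaction of LCN2 -0.111, H1975 paclitaxel LCN2 -0.016 and SLPI -0.021, H1975 combination against almonertinib CFB -0.073 and against paclitaxel SERPINA1 -0.024, and H1975 paclitaxel against almonertinib SLPI -0.195. Without the 3 libraries it was H1975 combination against paclitaxel SAA1 -0.025. The paclitaxel difference of LCN2 between lines was -0.090 with RLE factors, -0.020 with no filter and -0.091 with DESeq2. The cause of these was not tested.

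Leaving out 1 library gave ranges that cross 0 for PC9 almonertinib LCN2 (-0.161 to 0.040) and CFB (-0.330 to 0.136), PC9 paclitaxel C3 (-0.106 to 0.189), PC9 combination against almonertinib SLPI (-0.199 to 0.072), H1975 almonertinib SLPI (-0.242 to 0.357), H1975 paclitaxel SLPI (-0.038 to 0.415), SAA1 (-0.110 to 0.323) and LCN2 (-0.042 to 0.141), H1975 combination against almonertinib SERPINA1 (-0.012 to 0.256) and CFB (-0.078 to 0.176), H1975 combination against paclitaxel SAA1 (-0.143 to 0.363), H1975 paclitaxel against almonertinib SLPI (-0.209 to 0.390) and SERPINA1 (-0.105 to 0.162), and the paclitaxel difference of LCN2 between lines (-0.083 to 0.139). Of the values without a test, PC9 combination against almonertinib SAA1 also crossed 0 (-0.108 to 0.192). So did the paclitaxel difference of SAA2 between lines (-1.02 to 1.06).

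Genes called over the whole table moved by over 1.5 times in H1975. Under almonertinib 241 became 46 with only the groups compared, 536 with all 24 libraries, 922 with the trend removed and 5630 without the 3 libraries. Under paclitaxel 79 became 172 with DESeq2, 245 with all 24 libraries, 376 with the trend removed and 1094 without the 3 libraries. Under the combination 304 became 202 with the replicate block, 708 with DESeq2, 1258 with all 24 libraries, 1587 with the trend removed, 1917 with only the groups compared and 4328 without the 3 libraries. The interaction went from 83 to 249, 303, 340 and 4077 with DESeq2, the trend removed, all 24 libraries and without the 3 libraries. Between H1975 treatments edgeR called 0 genes, with 1230 (combination against almonertinib), 1704 (combination against paclitaxel) and 484 (paclitaxel against almonertinib) at an unadjusted p under 0.05. The combination against almonertinib gave 41 with DESeq2, 45 with all 24 libraries and 4255 without the 3 libraries. Against paclitaxel it gave 3 with the stricter filter, 54 with no filter, 56 with RLE factors, 146 with the trend removed, 478 with DESeq2, 775 with all 24 libraries, 822 with only the groups compared and 4087 without the 3 libraries. Paclitaxel against almonertinib gave 2 with DESeq2, 4 with the trend removed, 1 with all 24 libraries and 4016 without the 3 libraries. Between lines, the almonertinib response went from 2216 to 3936 with the trend removed and 3942 without the 3 libraries, and the paclitaxel response from 2290 to 3783 without the 3 libraries. In PC9 the combination against almonertinib went from 2570 to 1318 with only the groups compared and 918 with all 24 libraries, and against paclitaxel from 5643 to 3734 with all 24 libraries. Leaving out 1 library gave 1274 to 4184 genes for the PC9 combination against almonertinib, 99 to 906 under almonertinib, 33 to 54 under paclitaxel and 64 to 419 under the combination in H1975, 29 to 596 for the H1975 interaction, 0 to 1101 for the H1975 combination against almonertinib, 0 to 424 against paclitaxel, and 1113 to 2975 for the paclitaxel response between lines. Depth limits SAA2 and PIGR in PC9 and SAA2, PIGR and BPIFB1 in H1975 to few counts per library.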
